A study of Mus musculus with 4 samples.

Results

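Of the 23395 contacts that 4 chromosome conformation capture carbon copy (5C) libraries of mouse chromosome 3 all list, 515 had an observed frequency at least 1.5 times the expected one in both keratinocyte libraries and both thymocyte libraries. These contacts, called shared contacts below, make up 2.20% of all listed contacts. They were selected on the ratio of observed to expected frequency in every library, so their strength is a property of the rule and is given as a description with no test. What the rule did not use is where the fragments lie, how far apart they are, and which genes, enhancers and topologically associating domains (TADs) they belong to. Each share of shared contacts is therefore set beside the share over all contacts listed in the 4 libraries.

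In 5C, chromatin is fixed and cut with the restriction enzyme HindIII, ends that lie close together in the nucleus are ligated, and pairs of probes that anneal beside the cut sites are joined wherever 2 fragments were ligated. A contact is one pair of a fragment with a forward probe and a fragment with a reverse probe. The expected frequency is the average at the same genomic distance in that library, so a ratio of 1 is a contact as frequent as others equally far apart. TADs are stretches of chromatin that contact themselves more than their surroundings. The locus, chr3 from 89.9 to 95.2 Mb in mm9, holds the Epidermal Differentiation Complex (EDC), a cluster of genes for proteins of the cornified envelope and for calcium-binding S100 proteins that keratinocytes switch on as they mature. Contacts between promoters, enhancers and TAD borders are known in many tissues, some shared by cell types and some particular to one.

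The keratinocytes were primary epidermal cells of newborn C57Bl/6 mice, plated for 15 hours at 32 °C in low calcium medium. The thymocytes were the total T cell population of C57Bl/6 thymi, whose age the labels do not give. Both were fixed with 1% formaldehyde for 10 minutes, and the labels name no transgene or drug treatment for either. There were 2 libraries of each cell type. The keratinocyte libraries listed 95692 and 67210 contacts, the thymocyte libraries 45861 and 53420. Nothing in the labels says whether the 2 libraries of a cell type came from separate animals. A 5C ratio is an average over a cell population, so a contact made in few cells often and one made in many cells rarely cannot be told apart.

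The libraries differed in how widely their ratios spread. A ratio of at least 1.5 was reached by 28.6% of the contacts in keratinocyte library 1, by 20.1% in keratinocyte library 2, by 16.8% in thymocyte library 1 and by 17.9% in thymocyte library 2. Across the 23395 contacts, Pearson's correlation of log2 ratios was 0.23 for the pair of keratinocyte libraries and 0.18 for the thymocyte pair. Between cell types it was 0.31 for keratinocyte library 2 with thymocyte library 1 and 0.19 with thymocyte library 2, and for keratinocyte library 1 it was 0.04 and 0.06. The libraries thus did not group by cell type on this measure. Contacts share fragments, so these are descriptions across contacts that are not independent.

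The strongest shared contacts joined loci up to several megabases apart, and their ligation junctions show which cut ends were joined. Each sequence below is the 30 bases of the forward probe followed by the 30 bases of the reverse probe, read 5′ to 3′. The capitals mark the HindIII site that ligation restores between them. Each probe is the last 30 bases of its fragment, and those printed here matched the mm9 sequence at every base. The first 6 are the strongest shared contacts at least 50 kb apart. The last 3 join a fragment within 10 kb of an enhancer to the start of an EDC gene. The enhancers, E1 to E16, are the study's putative ones, mapped in keratinocytes. The fragment printed as E9 in the contact with Tchh lies near E9 without overlapping it.
Lce3a side with Prr9, 776 kb: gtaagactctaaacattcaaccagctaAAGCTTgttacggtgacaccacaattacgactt
Ints3 with S100a10 side, 3178 kb: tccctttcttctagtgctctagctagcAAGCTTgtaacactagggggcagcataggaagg
S100a7a side with Snapin side, 139 kb: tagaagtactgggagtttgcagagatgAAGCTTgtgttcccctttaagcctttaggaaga
Gm9782 side with Pglyrp3 side, 979 kb: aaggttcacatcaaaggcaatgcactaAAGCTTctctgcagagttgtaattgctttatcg
Gm9116 side with Pglyrp3 side, 1942 kb: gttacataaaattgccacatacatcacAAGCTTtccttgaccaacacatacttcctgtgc
Pi4kb with S100a16 side, 4411 kb: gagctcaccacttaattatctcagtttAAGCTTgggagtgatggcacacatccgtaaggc
Sprr2h with enhancer E9, 739 kb: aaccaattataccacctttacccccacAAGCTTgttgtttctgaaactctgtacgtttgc
Enhancer E9 with Tchh, 320 kb: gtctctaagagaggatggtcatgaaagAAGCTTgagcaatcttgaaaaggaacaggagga
S100a4 with S100a14, 75 kb: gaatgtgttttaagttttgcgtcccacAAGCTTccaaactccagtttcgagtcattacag

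The contact with the highest ratio in its weakest library joined chr3:91922583-91927976, over an exon of Prr9, a gene of a proline-rich protein, to chr3:92703797-92721717, an intergenic fragment of 17921 bases that lies 8435 bases from the start of Lce3a. Its observed over expected ratio was 6.68 and 5.88 in keratinocytes (libraries 1 and 2, in this order throughout) and 5.50 and 6.46 in thymocytes, and its corrected frequency was 951 and 458, and 212 and 330. The ratios of the 2 cell types overlapped. Both fragments have their midpoints in TAD3, and the longer one reaches across the border to TAD4.

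The next contact joined an exon of Ints3, at chr3:90213825-90219074 in TAD1, to an intergenic fragment at chr3:93397292-93397681 in TAD4, which lies 38290 bases from the start of S100a10. Its ratio was 5.27 and 9.29 in keratinocytes and 5.32 and 6.28 in thymocytes. Ints3 encodes a subunit of the Integrator complex, and S100a10 a partner of annexin A2. The third lay within TAD1, between chr3:90300738-90302602, which is 5783 bases from the start of Snapin, and chr3:90442009-90449781, which is 8443 bases from that of S100a7a. Its ratio was 5.75 and 6.61 in keratinocytes and 6.48 and 4.63 in thymocytes. In both contacts the values of the cell types overlapped.

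A pair of contacts with fragments in the large TAD2 followed. One joined chr3:91772470-91779459 to chr3:92758725-92760869 in TAD4, 1111 bases from the start of the predicted gene Gm9782, with ratios of 4.56 and 5.18 in keratinocytes and 5.14 and 4.74 in thymocytes. The other joined chr3:91751994-91752977 to chr3:93694506-93697585 in TAD5, with ratios of 4.23 and 4.53 in keratinocytes and 4.82 and 7.19 in thymocytes. The TAD2 fragments were intergenic and lay 39046 and 65528 bases from the nearest protein-coding start, that of Pglyrp3, which encodes a peptidoglycan recognition protein. In the second contact both thymocyte libraries were above both keratinocyte libraries, while in the first they overlapped.

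The longest of the 10 strongest distant contacts spanned 4411 kb, from chr3:90370241-90370371 beside enhancer E4 in TAD1 to chr3:94781657-94782122 in an intron of Pi4kb, a phosphatidylinositol kinase gene, beside enhancer E14 in TAD6. Its ratio was 5.74 and 7.73 in keratinocytes and 4.43 and 4.22 in thymocytes. Here both keratinocyte libraries were above both thymocyte libraries. Of these 10 contacts, 8 lay between different TADs, and the gaps ran from 139 to 4411 kb.

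Among contacts less than 50 kb apart, the highest lowest ratio belonged to a pair of fragments in TAD7. The fragment chr3:94975443-94978491 overlaps an exon of Sema6c, a transmembrane semaphorin gene, and chr3:94994683-94996372 an exon of Gabpb2, a transcription factor subunit gene. Their ratio was 3.53 and 6.33 in keratinocytes and 4.47 and 5.29 in thymocytes, at a corrected frequency of 6212 and 7091, and 6589 and 7513. The same Sema6c fragment had a second strong contact 34 kb away in Gabpb2, with ratios of 3.41 and 4.58, and 5.52 and 3.07. The next close contacts joined neighbouring fragments in TAD2, fragments over Slc27a3 and Npr1 in TAD1, and fragments within Nup210l.

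**Figure D1:**
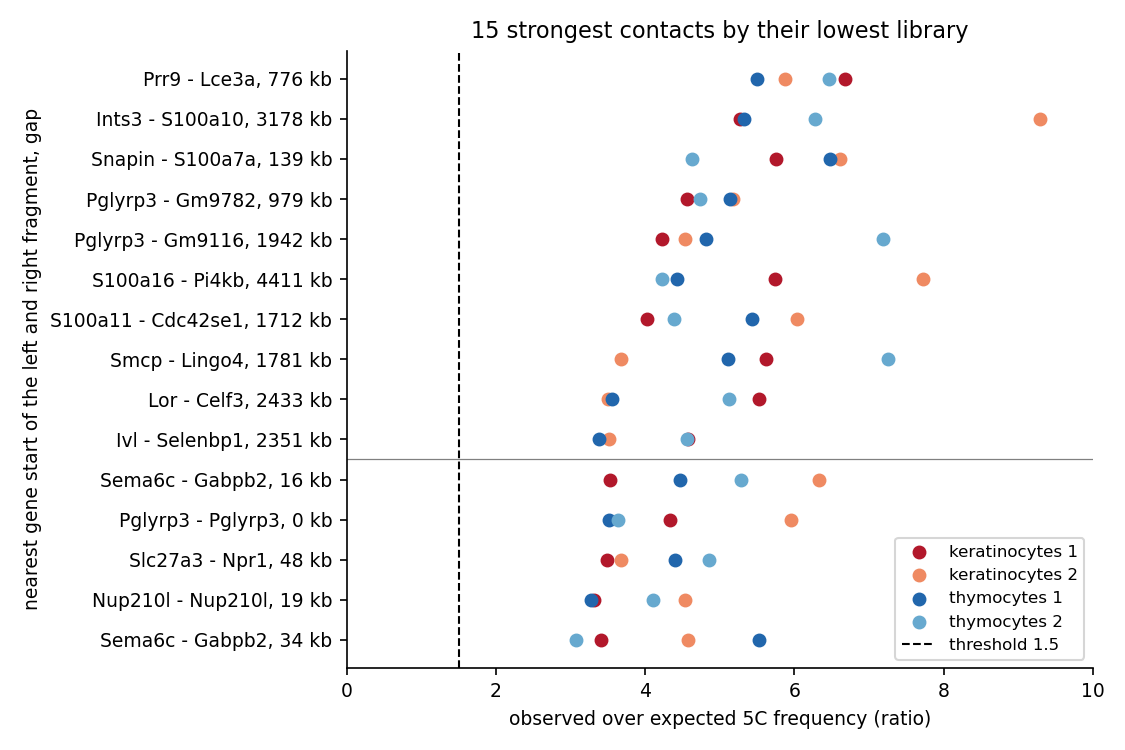
Observed over expected 5C frequency of the 10 shared contacts at least 50 kb apart (above the grey line) and the 5 closer ones (below) with the highest ratio in their weakest library. Each point is 1 library, and the dashed line is the threshold of 1.5, so all points lie to its right by the rule. The points of keratinocytes and thymocytes interleave in most rows, and gaps reach 4411 kb.

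At the threshold the members thinned out without a break. The weakest shared contact had a lowest ratio of 1.5017 and the strongest contact left out one of 1.4998. A lowest ratio under 1.6 was held by 107 shared contacts, and 166 contacts just missed the rule with lowest ratios from 1.4. One of the members just inside joined chr3:91909400-91913659 near Prr9 to chr3:92926647-92927381 beside enhancer E9, with ratios of 3.83 and 1.51 in keratinocytes 1.66 and 1.5 in thymocytes. One just outside joined chr3:90272680-90286410, at the start of Ilf2, to chr3:93313961-93315022, with 2.56 and 1.5, and 1.64 and 1.92. In these contacts the keratinocyte libraries differed from each other by more than the thymocyte libraries did, but others at the threshold went the other way. Just inside, chr3:93247427-93252009 with chr3:94409448-94410599 had 1.86 and 1.68 in keratinocytes and 1.5 and 5.54 in thymocytes. Just outside, chr3:91772470-91779459 with chr3:92954599-92956533 had 1.59 and 1.62, and 4.11 and 1.5.

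Over all shared contacts the median ratio was 2.40 and 2.83 in keratinocytes, 2.60 and 2.73 in thymocytes, and the highest was 11.7. Keratinocyte library 1 was the lowest of the 4 for 195 of the 515 contacts and keratinocyte library 2 for 83, with 117 and 120 for the thymocyte libraries. The highest of the 4 ratios was a median of 2.30 times the lowest, and 189 contacts stayed within 2-fold over all libraries. The mean log2 ratio was 1.48 in keratinocytes (SD 0.14 between libraries, n = 2) and 1.53 in thymocytes (SD 0.03, n = 2). The difference, keratinocytes minus thymocytes, was -0.05, smaller than the SD between the keratinocyte libraries.

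The values of the cell types overlapped in 337 shared contacts, and the others were split nearly evenly between the directions. Both keratinocyte libraries were above both thymocyte libraries in 87 shared contacts, or 16.9%, where the same held for 22.1% of all listed contacts. Both thymocyte libraries were above in 91, or 17.7%, beside 18.7% of all listed contacts. Ordered by the difference of mean log2 ratios, a measure chosen after the values were seen, the first contact on the keratinocyte side was that of chr3:90300738-90302602 near Snapin with chr3:90483393-90484391 near S100a8, 181 kb away, at 4.05 and 7.70 in keratinocytes and 2.09 and 1.62 in thymocytes. On the thymocyte side it was chr3:92942150-92947364, 1345 bases from the start of Crnn, with chr3:94257578-94265921 in TAD6, at 1.59 and 1.69 in keratinocytes and 9.07 and 9.29 in thymocytes. Crnn encodes cornulin, a fused S100 protein of stratified epithelia. These contacts pass the rule in both cell types and still differ several-fold between them.

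The q-values that the authors deposited rest on the same frequencies, so they describe the members and test nothing new. A q-value under 0.05 in both keratinocyte libraries was held by 2.03% of all listed contacts, in both thymocyte libraries by 3.77%, and in all 4 libraries by 0.581%. The last are 136 contacts, every one of them among the 515. By library, 266 and 363 shared contacts were under 0.05 in keratinocytes and 385 and 409 in thymocytes. Most shared contacts were thus not called in all libraries by the q-value.

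How often a contact past 1.5 in one cell type was also past it in the other can be read from the same tables. Of the 2316 contacts past 1.5 in both keratinocyte libraries, 515 or 22.2% were also past it in both thymocyte libraries. Of the 21079 other contacts, 5.24% were. Of the 1619 contacts past 1.5 in both thymocyte libraries, 31.8% were past it in both keratinocyte libraries. Contacts past 1.5 in both keratinocyte libraries and in neither thymocyte library numbered 1047, and the opposite set 521.

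Leaving each library out of the rule in turn gives its value at contacts chosen without it. Of the 937 contacts past 1.5 in the other 3 libraries, 55.0% were past it in keratinocyte library 1, against 27.5% of the remaining contacts. For keratinocyte library 2 it was 76.2% of 676 contacts against 18.5%. For thymocyte library 1 it was 60.9% of 845 against 15.2%, and for thymocyte library 2 it was 54.8% of 939 against 16.3%. The median ratio in the library left out was 1.6, 2.30, 1.81 and 1.66 in this order, beside 1.08, 1.09, 1.06 and 1.04 at the remaining contacts. In each library, then, most contacts found in the other 3 were past the threshold, and the share was highest in keratinocyte library 2.

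Shared contacts were shorter than the listed contacts as a whole. Their median gap was 547 kb, with quartiles of 142 and 1826 kb, where all listed contacts had a median of 934 kb and quartiles of 303 and 2103 kb. Gaps under 500 kb were found in 253 shared contacts, or 49.1%, beside 35.8% of all. The contacts past 1.5 in keratinocytes alone had a median gap of 1211 kb and those in thymocytes alone one of 953 kb. The shorter gap rests on both thymocyte libraries: with the threshold in the other 3 libraries, the median was 903 kb without thymocyte library 2 and 821 kb without thymocyte library 1, nearer to the 934 kb of all contacts.

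By distance, the share of shared contacts was 4.64% under 10 kb (18 of 388), 3.27% from 10 to 50 kb, 4.46% from 50 to 100 kb (46 of 1031) and 3.29% from 100 to 250 kb. From 250 to 500 kb it was 2.09%, and from there on it stayed between 1.53% and 1.95%. The share of contacts past 1.5 in a single library, from 50 to 100 kb and from 500 to 1000 kb, was 15.2% and 15.3% in thymocyte library 1, and 18.7% and 15.9% in thymocyte library 2. In keratinocytes it was 23.8% and 29.4% in library 1, and 19.6% and 19.1% in library 2. Contacts between fragments that are neighbours on the chromosome made up 14 of the 18 under 10 kb, or 9.52% of the 147 such contacts listed. Each probe is the last 30 bases of its fragment, so an uncut site between neighbours does not set their probes side by side. The source of this share was not tested.

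**Figure D2:**
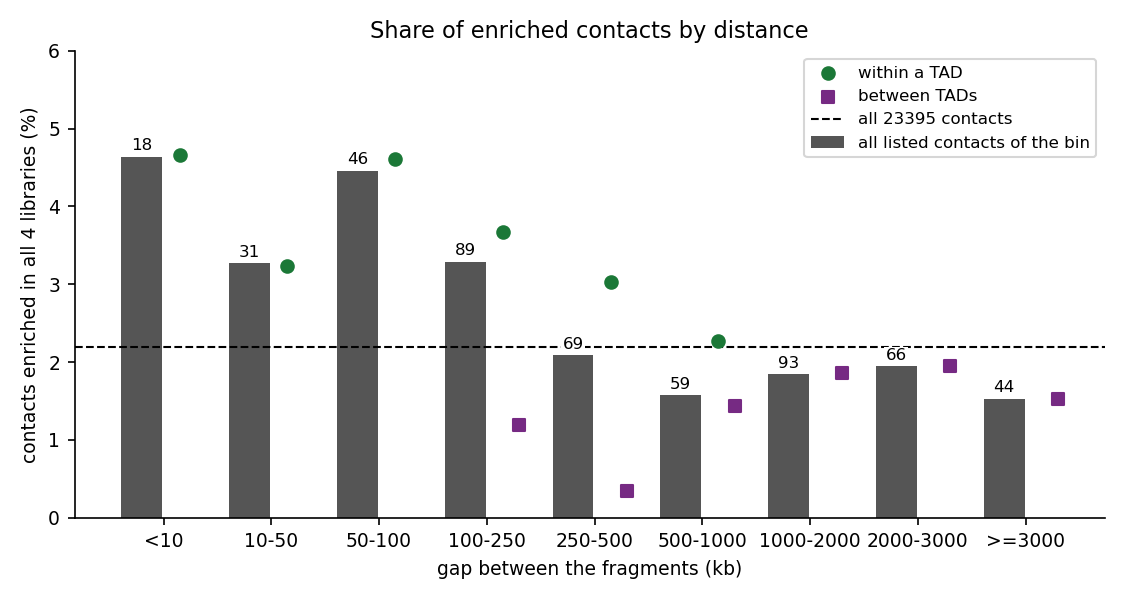
Percent of listed contacts that were enriched in all 4 libraries, by the gap between the fragments in kb. Bars give all contacts of a bin with the number of shared contacts above, circles and squares the contacts within and between TADs (bins with at least 100 of them), and the dashed line the 2.20% over all contacts. The share lies above the line up to 250 kb, and within TADs it is above that between TADs from 100 to 1000 kb.

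Taken over all TADs together, contacts within and between TADs also differed at a given distance. With the average keratinocyte borders, 256 shared contacts lay within a TAD and 259, or 50.3%, between TADs, where 68.5% of all listed contacts lay between TADs. From 100 to 250 kb, 3.67% of the contacts within a TAD were shared contacts and 1.19% of those between TADs. From 250 to 500 kb the shares were 3.03% of 2142 and 0.343% of 1167, and from 500 to 1000 kb 2.27% of 662 and 1.44% of 3064. Beyond 1 Mb nearly all contacts are between TADs, and 93 shared contacts lay at 1 to 2 Mb, 66 at 2 to 3 Mb and 44 further apart. Among ranges with at least 100 contacts between TADs, the share was lowest at 250 to 500 kb, with 4 shared contacts, and it was 1.86% from 1 to 2 Mb.

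The TADs contributed unequally. TAD7, at the 3′ end of the locus, had 49 shared contacts among its 419 internal contacts, or 11.7% (Wilson 95% interval 8.96% to 15.1%). TAD1, at the 5′ end, had 106 of 1946, or 5.45% (4.52% to 6.55%), and TAD6 42 of 1327, or 3.17%. TAD3 and TAD4, which hold the central EDC, had 24 of 1197 (2.01%) and 24 of 2001 (1.20%). TAD2 had 10 of 477 (2.10%) and TAD5 1 of 10. The Wilson intervals here and below treat contacts as independent. Contacts share fragments, so the intervals can be too narrow, and they hold for these libraries only.

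TAD7 and TAD1 also led at a single range of distance. From 50 to 250 kb, the share was 13.4% in TAD7 (36 of 269), 6.58% in TAD1 (64 of 973), 2.22% in TAD2, 1.79% in TAD6, 1.54% in TAD3 and 0.833% in TAD4 (7 of 840). Between TADs it was 2.60% from 50 to 100 kb and 1.19% from 100 to 250 kb, and only TAD7 and TAD1 were above both. From 250 to 1000 kb these TADs had 1.63% to 8.33%. All were above the shares between TADs, 0.343% up to 500 kb and 1.44% beyond. In TAD7 from 50 to 250 kb the median ratio over all contacts, shared or not, was 1.59 and 1.39 in keratinocytes and 1.18 and 1.25 in thymocytes. In TAD4 it was 0.880 and 0.988, and 1.09 and 1.09. The contacts of TAD7 as a whole were thus above 1 in all libraries, and further above it in both keratinocyte libraries than in either thymocyte library.

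Between TADs, the pair with the highest share was TAD2 with TAD5, at 7 of 102 contacts or 6.86% (Wilson 95% interval 3.36% to 13.5%). This value rests on 1 fragment: 5 of the 7 shared contacts had one end at chr3:93574851-93577264, which overlaps an exon of the predicted gene Gm5773, and without that fragment the share was 2 of 76, or 2.63%. With the threshold in 3 libraries it was 15.7% without thymocyte library 1 and 15.7% without thymocyte library 2, beside 3.61% and 4.01% of all contacts. The strongest of the 5 joined it to chr3:91287430-91289317, 2286 kb away, with ratios of 6.68 and 4.91 in keratinocytes and 2.70 and 3.57 in thymocytes. In all 5 both keratinocyte libraries were above both thymocyte libraries. In single libraries, 77.5% and 46.1% of the TAD2 contacts with TAD5 were past 1.5 in keratinocytes, and 26.5% and 28.4% in thymocytes. A further 16 contacts of this pair were past it in both keratinocyte libraries alone and 1 in both thymocyte libraries alone.

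The other pairs of TADs held from 0% to 2.78%. The lowest with over 500 contacts was TAD1 with TAD7, at 4 of 708 or 0.565%, and the neighbours TAD3 and TAD4 had 27 of 2495 or 1.08% and TAD6 and TAD7 11 of 1095 or 1.00%. The pair TAD2 with TAD6 had 13 of 468 (2.78%), TAD2 with TAD4 33 of 1292 (2.55%) and TAD1 with TAD4 30 of 1426 (2.10%). In the mm9 gene models used here, TAD2 had 2.38 protein-coding starts per Mb, TAD5 23.3 and the others 26.7 to 51.0.

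**Figure D3:**
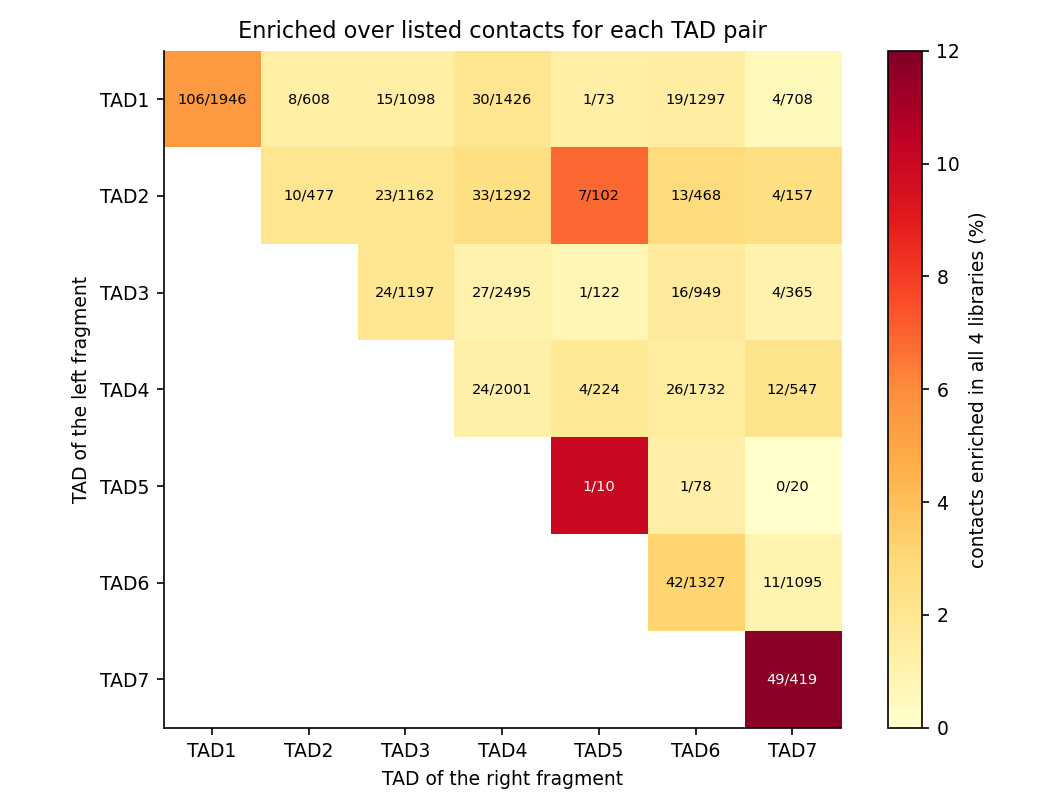
Shared over listed contacts for every pair of TADs, with the TAD of the left fragment in rows and that of the right fragment in columns. Colour gives the percent of listed contacts that were enriched in all 4 libraries, from 0 to 12. TAD7 with itself (49 of 419) and TAD1 with itself (106 of 1946) stand out with many contacts, while the dark cell of TAD5 with itself is 1 of 10.

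Shared contacts gathered on some fragments. Of the 640 fragments with listed contacts, 410 had at least 1 shared contact, 161 had exactly 1 and 54 had 5 or more. The 20 fragments with most of them took part in 130 shared contacts, or 25.2%, and in 9.01% of the listed contacts. These 20 were picked from the members' own counts, so the gap between the 2 shares is partly made by the choice. Fragments with a shared contact had a median of 98.5 listed contacts, and fragments without one a median of 52.0.

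The fragment with most was chr3:90422210-90424819 in TAD1, an intergenic stretch 5394 bases from the start of S100a6 and within 10 kb of enhancer E7. It had 11 shared contacts among 106 listed ones, 8 of them within TAD1. S100a6 encodes calcyclin, a calcium-binding protein of proliferating cells. Its partners included 3 fragments nearest to Snapin, 121 to 130 kb away, and chr3:90490837-90493026 near S100a9, where the ratio was 2.60 and 6.75 in keratinocytes and 7.75 and 5.66 in thymocytes. It also met chr3:92316489-92319594 in TAD3, 1892 kb away and nearest to Sprr4, at 2.04 and 3.98, and 4.93 and 4.64. Over all its 106 contacts the median ratio was 0.897, so the fragment was not raised as a whole.

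The second, chr3:90483393-90484391, lay 10400 bases from the start of S100a8, which encodes a subunit of calprotectin, and had 10 shared contacts of 88, all within TAD1. Its partners ran along the TAD, from Nup210l 570 kb away over Slc27a3, Npr1, Snapin and S100a14 to fragments beside S100a8 and S100a9. A pair of neighbouring fragments before Pogz, a zinc finger gene of TAD6, came next. At chr3:94637243-94638404 there were 9 shared contacts of 113, and at chr3:94638405-94639586 there were 8 of 139. Between them they met fragments nearest to Lingo4, Oaz3, Mrpl9, Celf3 and Snx27, 298 to 445 kb away within TAD6. The first also met chr3:92188333-92189358, 249 bases from the start of Sprr2h in TAD3 and 2448 kb away, at 3.05 and 6.00 in keratinocytes and 3.19 and 2.43 in thymocytes.

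In TAD7 the fragment with most was chr3:94939982-94941843 in Lysmd1, with 8 of 108, and 7 of the 8 partners lay in the same TAD, among them fragments nearest to Psmd4, Sema6c, Anxa9 and Setdb1. Psmd4 encodes a proteasome subunit and Setdb1 a histone methyltransferase. As a share of listed contacts, among fragments with at least 30, the highest was chr3:90432718-90442008 with 6 of 41, or 14.6%, between S100a6 and S100a7a. The next was chr3:90014198-90017886 over the starts of Rps27 and Rab13 and beside enhancer E1, with 4 of 31, or 12.9%. All 6 fragments with the highest shares lay in TAD1.

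Most shared contacts stood alone. When contacts whose forward and reverse fragments are each at most 2 fragments of the same kind apart are joined, the 515 formed 403 patches, and 338 contacts, or 65.6%, had no shared contact beside them. The figure was 63.7% for the 1047 contacts past 1.5 in keratinocytes alone and 83.1% for the 521 in thymocytes alone. A larger set leaves fewer contacts alone, so only the last set, near 515 in size, compares directly. No share was taken for all listed contacts. The largest patch held 11 contacts of TAD7, between 67 and 185 kb apart, joining the stretch of Pip5k1a, Vps72 and Lysmd1 to that of Gabpb2 and Bnipl. Its median ratios were 3.44 and 2.62 in keratinocytes and 2.91 and 2.19 in thymocytes. A patch of 7 joined fragments at the starts of S100a1, S100a13 and S100a14 to fragments within chr3:90358910-90413018, 27 to 79 kb apart. Its medians were 2.64 and 5.80, and 2.88 and 2.03. Of its forward fragments, only chr3:90407427-90413018 lay within 5 kb of the starts of S100a3, S100a4, S100a5 and S100a6. Another 7 joined the stretch around Rps27 and Rab13 to that around Gatad2b.

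The contacts beside a shared contact were not chosen by their own ratio, apart from being left out of the rule. Those with the same forward fragment and a reverse fragment 1 step away had median ratios of 1.4 and 1.20 in keratinocytes and 1.05 and 1.08 in thymocytes. With the same reverse fragment and the forward fragment 1 step away, they were 1.47 and 1.22, and 1.05 and 1.05. With both fragments moved by 1 step, they were 1.27 and 1.18, and 1.09 and 1.10. Over all 22880 contacts outside the shared set the medians were 1.08 and 1.09, and 1.06 and 1.04. The median gap beside a shared contact was 302 to 330 kb, and that of the other contacts 941 kb. Beside a shared contact the median ratio was above that of other contacts in both keratinocyte libraries, while in the thymocyte libraries it ran from 1.05 to 1.10, on either side of that of other contacts in library 1 and just above it in library 2. Within ranges of distance, with both fragments moved by 1 step, the keratinocyte medians were above those of other contacts from 10 kb to 2 Mb, but not under 10 kb in library 1 (0.998 beside 1.12) nor at 2 to 3 Mb in library 2 (0.981 beside 1.06). The thymocyte medians were above in both libraries at 50 to 100 kb (1.14 and 1.14 beside 1.06 and 1.07). They were also above at 500 to 1000 kb (1.11 and 1.07 beside 1.06 and 1.06) and 1 to 2 Mb (1.14 and 1.08 beside 1.01 and 0.997). From 10 to 50 kb they were below (0.931 and 1.02 beside 1.05 and 1.09), and no shift held in both libraries at the remaining ranges. In keratinocyte library 1 it took 6 steps with both fragments moved to come down to 1.09.

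**Figure D4:**
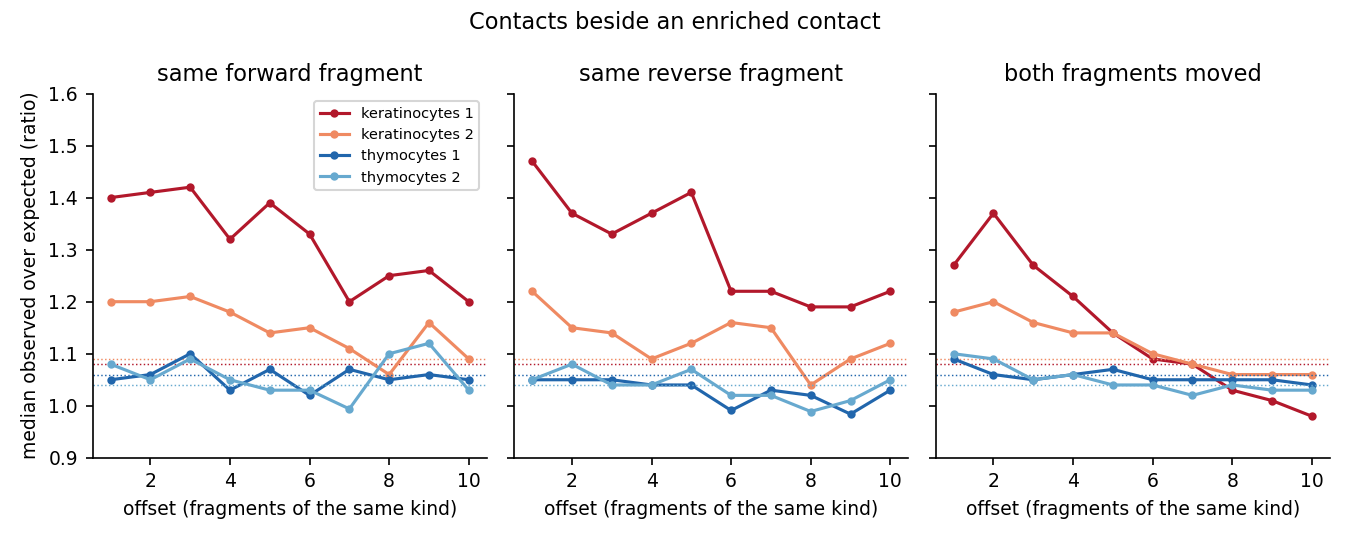
Median observed over expected ratio of contacts outside the shared set, by how many fragments of the same kind they lie from a shared contact, for a common forward fragment, a common reverse fragment or neither. Lines are the 4 libraries and dotted lines their medians over all contacts outside the shared set. The keratinocyte lines start above their dotted lines, at 1.4 and 1.20 in the first panel, and the thymocyte lines stay near theirs.

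Genes were assigned to a fragment when a protein-coding start lay within 5 kb of it. Both fragments had one in 76 shared contacts, or 14.8%, beside 13.8% of all listed contacts. One fragment had one in 47.0%, beside 46.5%, and neither in 38.3%, beside 39.7%. With a window of 2 kb in place of 5 kb, both fragments had a start in 6.80% of shared contacts, beside 4.83% of all. At a ratio of at least 2 in every library, with the 5 kb window, they had one in 19.3%, beside 13.8%. Under 250 kb the share of shared contacts was 4.15% where both fragments had a start, 3.55% where one had and 3.49% where neither had.

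Individual gene groups differed more, as did the TADs that hold them. Contacts at the starts of 11 of the 12 genes of the 5′ S100 cluster, calcium-binding proteins in TAD1 (S100a2 is not in the gene models), included 51 shared contacts of 1251, or 4.08%, and every one of these 11 genes had some. S100a14 had 15 of 191, S100a3 8 of 39, S100a4 8 of 36 and S100a8 12 of 354. The 8 of S100a3 and the 8 of S100a4 are the same contacts, since both starts lie within 5 kb of the same fragments. Those fragments, chr3:90407427-90413018 and chr3:90402605-90407426, had only 20 and 16 listed contacts, fewer than the 30 asked for a share by fragment. Where both fragments lay at starts of this cluster, 4 of 37 contacts were shared. Of these, chr3:90330428-90332070 at S100a14 with chr3:90407427-90413018 at S100a4, 75 kb away, had ratios of 2.64 and 6.49 in keratinocytes and 3.90 and 2.63 in thymocytes. The S100 genes at the other side of the EDC, S100a10 and S100a11, had 5 of 302, or 1.66%. Over all contacts with a fragment in TAD1 the share was 2.56%, and with a fragment in TAD4, which holds S100a10 and S100a11, 1.61%.

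The Sprr, Lce and fused S100 lists were below the share of all contacts, while other envelope genes were above it. Contacts with any fragment in TAD3 or in TAD4, where the first 3 lists lie, had similar shares of 1.49% and 1.61%. Only 11 of 16 Sprr genes and 13 of 18 Lce genes had listed contacts, so the shares cover part of each family. Sprr genes, small proline-rich envelope proteins, had 27 of 1767 (1.53%), Lce genes, late envelope proteins, 48 of 2983 (1.61%), and the fused S100 genes such as Flg, Rptn and Tchh 24 of 1885 (1.27%). Single genes of these lists lay on both sides: Lce1a2 had 13 of 529, Lce1m 12 of 300, Flg, the gene of filaggrin, 9 of 215, and Sprr1b 1 of 319. The other envelope genes had 28 of 875 (3.20%), of which Crct1 held 11 of 284 and Ivl, the gene of involucrin, 10 of 231. Crct1 and Lce1m share fragments, so their contacts are partly the same. Tdpoz3, the only Tdpoz gene with listed contacts, had 1 of 82, and the peptidoglycan recognition genes Pglyrp3 and Pglyrp4 4 of 359 (1.11%).

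Among genes outside the EDC families, a list of TAD7 and its border had 43 of 1459 (2.95%), with 10 of 154 at Lysmd1. It includes Zfp687, whose start lies on the TAD6 side of the border and had 0 of 125. Those of TAD1 had 54 of 1932 (2.80%), with 11 of 172 at the starts of Rps27 and Rab13, which share fragments, and those of TAD6 58 of 2874 (2.02%), with 20 of 512 at Pogz. Where both fragments carried starts of the TAD7 list, 10 of 66 were shared (15.2%), for TAD6 10 of 188 (5.32%) and for TAD1 7 of 113 (6.19%). The median gap of these pairs was 101, 178 and 125 kb, so they differ in distance from the contacts as a whole. Contacts with any fragment in TAD7, TAD6 and TAD1 had shares of 2.54%, 1.84% and 2.56%, near those of the lists.

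**Figure D5:**
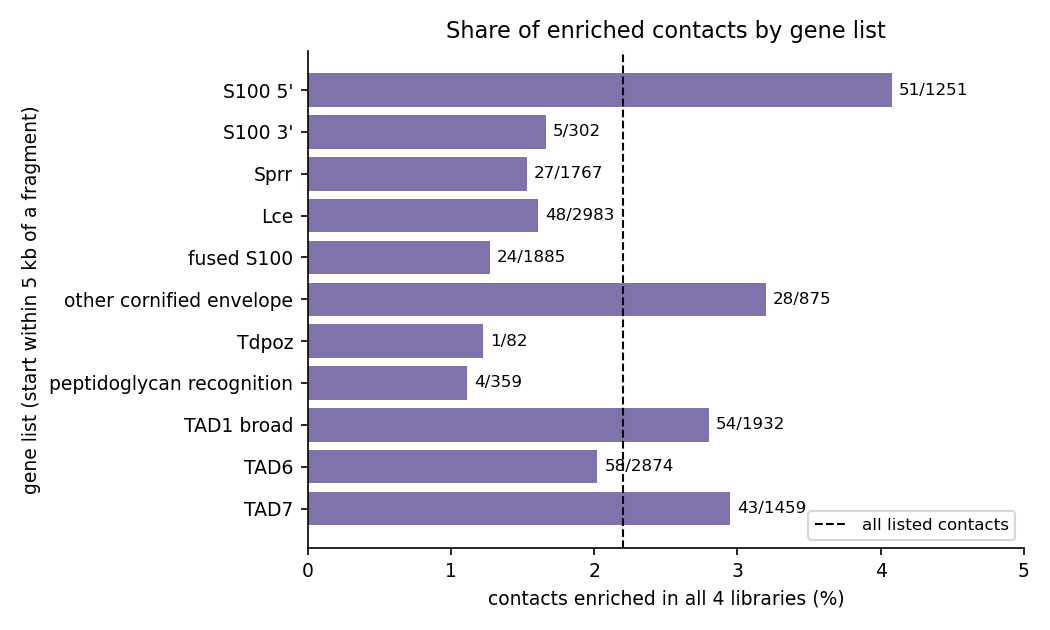
Percent of listed contacts enriched in all 4 libraries for each gene list, where a contact counts when a start of the list lies within 5 kb of either fragment. Numbers beside the bars are shared over listed contacts, and the dashed line is the 2.20% over all contacts. The 5′ S100 list is the longest bar at 51 of 1251, and Sprr, Lce and fused S100 lie left of the line.

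Contacts with an EDC gene start at both fragments included 24 shared ones of 1062, or 2.26%, near the 2.20% of all contacts. The strongest joined chr3:92214219-92217726 at Sprr2i and Sprr2j-ps in TAD3 to chr3:92818140-92819630 at Crct1 and Lce1m in TAD4, 600 kb away, with ratios of 4.68 and 6.13 in keratinocytes and 4.65 and 3.09 in thymocytes. The same Crct1 and Lce1m fragment met chr3:92167365-92174697 at Sprr2f and Sprr2g, 643 kb away, at 2.56 and 6.16, and 6.53 and 6.03. The start of S100a9 met chr3:93360291-93362400 in an intron of S100a10, 2863 kb away, at 2.65 and 5.37, and 7.85 and 3.58. Lor, the gene of loricrin, met Ivl 485 kb away at 2.88 and 2.40, and 2.24 and 2.76, the most even of these values. Of the 24 contacts, 9 lay between different TADs. The Sprr and Lce genes are families of close copies, and reads are assigned by the probe beside the cut site.

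The 16 enhancers of this locus are putative ones that the study mapped from histone marks of keratinocytes. Whether they are enhancers in thymocytes is not known from them. They were near a fragment (within 10 kb) in 118 shared contacts, or 22.9%, exactly as in 22.9% of all listed contacts. An enhancer at one fragment and a gene start at the other was found in 51, or 9.90%, beside 8.71%. The share of shared contacts differed by enhancer. It was 4.80% at E1 (13 of 271), 4.05% at E2 and E3 (21 of 518) and 3.96% at E4 to E7 (31 of 782), all in TAD1, and 3.03% at E15 in TAD7 (10 of 330). It was 1.87% at E9 (24 of 1286), 1.70% at E14, 1.28% at E10, 1.14% at E8, 0.857% at E11 and 0.835% at E13. At E12 it was 0 of 132 and at E16 0 of 8. The shares above 2.20% were all at enhancers of TAD1 and TAD7.

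Shared contacts between enhancers were concentrated in the 5′ S100 cluster. Of 13 shared contacts with different enhancers at their fragments, 7 joined E2 or E3 to E4 to E7, 53 to 80 kb apart. They were 7 of the 25 listed contacts between these 2 groups, or 28.0%, where the other contacts of TAD1 from 30 to 107 kb had 23 of 370, or 6.22%. Over the 25 contacts the median ratio was 2.21 and 2.01 in keratinocytes and 1.19 and 1.63 in thymocytes. None of the 25 was past 1.5 in both libraries of one cell type and neither of the other. In all 7, the fragment at E2 or E3 also had an S100 gene start within 5 kb, and the 25 contacts share fragments. Some of these fragments had few listed contacts, with raised ratios over all of them. At chr3:90323054-90328420, 5 of 11 were shared (median ratio 2.03), and at chr3:90407427-90413018, 6 of 20 (1.88). At chr3:90402605-90407426 it was 2 of 16 (1.26). Whether sparse listing sets the 28.0% was not tested.

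Further from each other, the fragment chr3:92928281-92930961 at enhancer E9 in TAD4 met chr3:92188333-92189358 at the start of Sprr2h in TAD3, 739 kb away, with ratios of 2.92 and 7.91 in keratinocytes and 4.43 and 4.5 in thymocytes. Another fragment, chr3:92917428-92920332, lies within 10 kb of E9 without overlapping it. It met chr3:93240815-93247426 over the start of Tchh, the trichohyalin gene, 320 kb away, at 3.13 and 3.88, and 3.26 and 2.72. E15 in TAD7 met chr3:93317982-93321768, 2642 bases from the start of S100a11, 1712 kb away, at 4.02 and 6.03, and 5.43 and 4.39. The fragment of E6 and E7 at S100a4 met chr3:92473924-92475985 at Lce1a2, 2061 kb away, at 3.75 and 4.46, and 2.54 and 8.63. In the first 3 the cell types overlapped, and in the last the 2 thymocyte libraries lay on both sides of the keratinocyte ones.

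The fragments of shared contacts were longer and richer in G and C than those of listed contacts as a whole. The median over contacts of the mean fragment length was 3218 bases, beside 2670, and that of GC content 42.9%, beside 41.7%. In 4 classes of GC content with equal numbers of contacts, the share of shared contacts was 1.54%, 1.73%, 2.43% and 3.11% from the lowest to the highest. In 4 such classes of the shorter fragment's length it was 1.51%, 2.17%, 2.12% and 3.00%. The slope with GC was steepest at short range: under 250 kb the share was 1.45% below the median GC content and 5.31% at or above it, and beyond 1 Mb it was 1.77% and 1.83%. TAD1 and TAD7 also had the highest median GC of their fragments, at 43.9% and 45.3%. Whether base composition, fragment length or position sets these shares was not tested.

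Exons were overlapped by 39.8% of the fragment ends of shared contacts, beside 29.0% of those of all contacts, and 53.0% were intergenic, beside 61.8%. Fragments with a sequence of 25 bases in common, in either orientation, made up 23.5% of shared contacts, beside 13.7% of all. Among contacts whose shorter fragment was in the longest of these classes, it was 45.5% beside 34.3%. The share of shared contacts was 3.79% among contacts with such a common sequence and 1.95% among those without. Between the probes themselves the longest common run was at most 11 bases in the 508 shared contacts with both probe sequences and had a median of 5 in both sets. The part of common sequence in these shares was not tested.

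The core motif of CTCF, a zinc finger protein found at many loop anchors and TAD borders, was searched on both strands and occurred in 30 of the 640 fragments, or 4.69%. At least 1 fragment had it in 48 shared contacts, or 9.32%, beside 8.27% of all. Both had it in 1 shared contact, 0.194%, beside 38 of all, 0.162%. That contact spanned 99 kb within TAD1, and its motifs are shown in capitals with 9 bases to either side, on the strand that carries the motif.
Minus strand, core at chr3:89914723-89914733: gaagagacaCCAGCAGAGGGtgttgggtt
Plus strand, core at chr3:90024286-90024296: cactgtgctCCACCAGGGGGcagattgat
The left motif was on the minus strand and the right one on the plus strand, so they pointed away from each other. The AP-1 motif TGANTCA, bound by a family of factors active in keratinocytes, occurred in 314 fragments, or 49.1%. Both fragments held it in 25.4% of shared contacts and 25.3% of all. It was in both in 31.1% of the contacts past 1.5 in keratinocytes alone and in 24.2% of those in thymocytes alone. Longer fragments hold more motifs, and the median number per kb was 0.211 in shared contacts, beside 0.232 in all. It was 0.258 in keratinocytes alone and 0.226 in thymocytes alone.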

How the data were processed

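The authors aligned 5C reads to probe sequences with Bowtie (version not given in the sources used here), removed poorly performing probes and single contacts with a Z score of 25 or more, and corrected each probe's coverage with Loess in each library. The deposited signal values are the corrected frequency, the frequency expected at that distance and its standard deviation. The deposited score is the Z score, the deposited p-value and q-value come from a Weibull fit, and the other deposited column is the distance. Read depth is unknown, so no counting error is given for a frequency. Coordinates are mm9, which the submitters' processing notes name together with Bowtie.

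Observed over expected was the frequency divided by the expected value. The midpoint of a fragment decided its TAD, using the study's average keratinocyte borders. Gene starts were those of the 145 protein-coding genes of GENCODE vM1 within the locus, enhancers and probes those of the study. Lists were counted whole: 11 of 12 5′ S100 genes, 4 of 5 Tdpoz, 14 of 15 TAD1 and 16 of 18 TAD7 genes were found in the annotation, and those without listed contacts add nothing to a list's share. Contacts were named by the highest lowest ratio (those that separate the cell types by the difference of mean log2 ratios), fragments by their number or share of members (at least 30 contacts). The members and lists were chosen with earlier results of these data known, and no test was run. Python 3.11.15, numpy 2.4.6 and pandas 2.3.3 were used, and the selection step was tested on simulated data. Alternatives were other thresholds, a median scaling, Z scores, distances, borders, windows and leaving out each library.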

Additional observations from a re-analysis of the deposited data

How the results depend on the processing

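No paired analysis was possible because the results come from no test. Of 92 alternatives other than leaving out a library, 74 left the value within its interval or 1.5 times its count. Not all of them could move it: a lower threshold of 1.2 keeps the 136 contacts called by q-value by construction. The interval also treats contacts as independent. A threshold of 1.2 gave 1525 shared contacts, 54.8% between TADs (68.5% of all) and 17.2% at the 20 leading fragments (9.69% of all). It was passed by 15.7% of the TAD2 with TAD5 contacts, beside 6.52% of all contacts. It also turned keratinocytes minus thymocytes from -0.05 to 0.05. A threshold of 2 gave 171 shared contacts, 19.3% with gene starts at both fragments (13.8% of all) and 0% with CTCF motifs at both (0.162%). Of these 171, 43.9% were at the leading fragments, beside 7.78% of all contacts. Contacts at least 50 kb apart had a median gap of 722 kb and 55.4% between TADs, beside 1044 kb and 72.5% of all such contacts. A gene window of 2 kb gave 6.80% (beside 4.83% of all) and 10 kb 29.5% (29.7%). For enhancers, overlap gave 8.16% (6.14%), 5 kb 16.7% (14%) and 20 kb 32.0% (31.8%). A CTCF motif in at least 1 fragment gave 9.32%, and a q-value under 0.01 in all libraries 81 contacts.

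With the threshold in 3 libraries only, the number ran from 676 (without keratinocyte library 2) to 939 (without thymocyte library 2), with 937 without keratinocyte library 1 and 845 without thymocyte library 1. The number called by q-value ran from 192 to 412, the median gap from 590 to 903 kb (934 kb over all contacts), the share between TADs from 53.3% to 59.6%, and the TAD2 with TAD5 share from 6.86% to 15.7%. The last was 15.7% without thymocyte library 1 and also without thymocyte library 2, beside 3.61% and 4.01% of all contacts. The number called by q-value was 412 without keratinocyte library 1 and 214 without thymocyte library 2, beside 136 in all libraries. The cause of these changes, beyond fewer libraries in the rule, was not tested. Unknown depth leaves the error of each ratio unmeasured.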
